A study of Mus musculus with 2 samples.

Results

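The genes described here are 10 receptors and marker genes of border-associated macrophages, the macrophages that line the meninges, the vessel walls and the choroid plexus of the brain. They are Mrc1, Cd163, Stab1, Lyve1, Folr2, Cd209f, Clec10a, Pf4, Dab2 and Cbr2. They were taken by symbol from the 32285 genes listed for each library, and all 10 were listed in both. Values are counts of unique molecular identifiers (UMIs, tags that count single RNA molecules) or of cells, or are computed from them.

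The series profiled single cells of the mouse central nervous system by 10x Genomics 3′ sequencing, in 1 library labelled Cx3cr1 heterozygous (Cx3cr1-/+) and 1 labelled wild type (Cx3cr1+/+), to compare the microglia-like progeny of haplo-insufficient and wild-type haematopoietic stem and progenitor cells. Cx3cr1 encodes the receptor for fractalkine, a chemokine made by neurons. For both libraries the labels give CD45.1 recipients that had received 4 doses of busulfan at 25 mg/kg, a drug that clears the marrow niche, and then, by vein, GFP+ and GFP- cells sorted from the lineage-negative (Lin-) pool of Cx3cr1-/+ mice. That text is shared by the libraries, and the donor cells behind the wild-type one are not stated. Sex, age, interval after the transplant and the number of animals pooled are not in the labels used here, and donor and recipient cells are not separated.

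Border-associated macrophages clear the fluid spaces at the edge of the brain by endocytosis. Mannose, haemoglobin, hyaluronan and folate are among the ligands that their receptors bind, and several of these receptors are absent or low in parenchymal microglia, which makes them useful markers. They are not exclusive to the brain's borders: tissue macrophages elsewhere, type 2 dendritic cells, liver endothelium and megakaryocytes also use members of the set.

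All 10 genes are protein coding in GENCODE M21 (GRCm38). The scavenger and endocytic receptors are Mrc1, the mannose receptor (ENSMUSG00000026712, chr2:14229392-14332057, plus strand), Cd163, the haemoglobin-haptoglobin receptor (ENSMUSG00000008845, chr6:124304656-124330527, plus strand), and Stab1, a multi-ligand clearance receptor (ENSMUSG00000042286, chr14:31139013-31168641, minus strand). Lyve1, a hyaluronan receptor (ENSMUSG00000030787, chr7:110850607-110863239, minus strand), and Folr2, folate receptor beta (ENSMUSG00000032725, chr7:101839988-101857194, minus strand), complete that group. The lectins are Cd209f, a mouse relative of DC-SIGN (ENSMUSG00000051906, chr8:4102787-4105835, minus strand), and Clec10a, a galactose-type lectin (ENSMUSG00000000318, chr11:70156197-70170834, plus strand). The others are Pf4, the chemokine platelet factor 4 (ENSMUSG00000029373, chr5:90772435-90773383, plus strand), Dab2, an adaptor that links receptors to clathrin (ENSMUSG00000022150, chr15:6299788-6440712, plus strand), and Cbr2, a carbonyl reductase (ENSMUSG00000025150, chr11:120729489-120732114, minus strand).

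Of the runs of 90 bases in the longest coding transcript of Cd209f, 30.5% also occur in its neighbour Cd209g, so the split of reads between these 2 genes is uncertain. The same share was 4.95% for Clec10a with Mgl2 and 7.93% for Cbr2 with Gm11771, and 0 for the other 7 genes. Stab1, Folr2 and Dab2 overlap genes on the opposite strand, and strand use in the counting is not given in the sources used here.

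RefSeq promoter windows (GRCm38.p6, the 250 bases before a transcript start) were found for 8 of the 10 genes. They are shown for Cd163 and Cd209f, which few cells carried, and for Pf4, which had the most UMIs of the set. They were searched on both strands for GAGGAAGT, a site of the myeloid factor Spi1, and TGCTGAC, the core of a Maf half-site. The windows lie at chr6:124304401-124304650 (plus strand), chr8:4105765-4106014 (minus strand) and chr5:90772185-90772434 (plus strand). Capitals mark the only match found in the 8 genes, a Spi1 site on the minus strand that begins 10 bases before the Pf4 start.
Cd163: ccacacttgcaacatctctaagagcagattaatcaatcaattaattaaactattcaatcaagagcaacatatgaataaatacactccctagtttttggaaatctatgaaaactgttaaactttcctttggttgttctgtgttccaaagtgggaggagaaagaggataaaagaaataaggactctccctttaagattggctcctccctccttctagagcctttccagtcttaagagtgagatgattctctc
Cd209f: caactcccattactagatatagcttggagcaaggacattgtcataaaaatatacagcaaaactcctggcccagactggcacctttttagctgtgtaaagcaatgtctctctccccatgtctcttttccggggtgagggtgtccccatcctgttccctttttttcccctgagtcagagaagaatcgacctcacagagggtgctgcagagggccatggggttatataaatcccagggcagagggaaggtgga
Pf4: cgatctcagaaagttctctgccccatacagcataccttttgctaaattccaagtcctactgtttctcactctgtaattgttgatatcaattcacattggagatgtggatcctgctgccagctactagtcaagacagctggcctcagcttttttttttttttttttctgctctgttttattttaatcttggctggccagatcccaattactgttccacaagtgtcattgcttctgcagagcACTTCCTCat
Of 32851 RefSeq windows of this length, 802 (2.44%) held the Spi1 letters and 1252 (3.81%) the Maf letters. A match describes the letters only, and these data hold no measurement of factor binding.

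Kept cells (at least 500 genes and under 10% mitochondrial UMIs) numbered 1489 of 1837 heterozygous and 1949 of 2359 wild-type barcodes, from totals of 17828344 and 22062823 UMIs. Their median depths were 6880 and 6637 UMIs. The barcode sequence was listed in both libraries for 339 barcodes, which gave 453 kept cells, and no doublet was called because the caller's thresholds (0.0885 and 0.128) lay above its highest scores (0.0765 and 0.0756). By sex-linked transcripts, 1054 heterozygous cells held UMIs of Xist alone and 36 of Y-linked genes alone, against 230 and 780 wild-type cells, and both marks were held by 4 and 169 cells. The genotype label and these marks therefore differ together. Clusters, made without the 10 genes and the sex-linked genes, included dendritic cell-like, microglia-like (a deep and a shallow cluster by UMI depth), monocyte-like, neutrophil-like and NK cell-like ones, and only 242 heterozygous and 360 wild-type cells were microglia-like by their markers, against the label of all cells. With 1 library per genotype there is no replicate check, and each interval is a 95% interval that covers counting error only.

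The 10 genes summed highest in an unnamed cluster and were nearly absent from NK cell-like cells, but neutrophil-like clusters also held many of their UMIs. Summed over the set, they reached 2284 CPM (UMIs of a gene per 1000000 UMIs of the cells summed) in heterozygous and 4587 in wild-type cells of a cluster led by Gpnmb, Spp1, Apoe and Ms4a7, which met no cell type's marker rule and stays unnamed. The chemistry counts 3′ ends, so levels are not scaled by gene length. In the order heterozygous and wild type, levels were 1199 and 1200.5 CPM in the shallow and 812 and 702 CPM in the deep microglia-like cluster, and 1271 and 866 CPM in dendritic cell-like cells. They were 103 and 74.1 CPM in Ace-Treml4 monocyte-like cells, and 16.1 and 11.7 CPM in NK cell-like cells, where 5 and 4 UMIs were found. The border-associated macrophage marker list, which holds none of the 10 genes, summed to 2851 and 3454 CPM in the Gpnmb-Spp1-Apoe cluster, with 9 and 10 of 10 markers found. It summed to 1218 and 1008 CPM in the deep microglia-like cluster. Of its genes, Ms4a7 stood at 1220 and 1163 CPM and Wfdc17 at 839 and 1094 CPM in the Gpnmb-Spp1-Apoe cluster. The list was not particular to that cluster. Dendritic cell-like cells had 355 and 153 CPM of Ms4a7, 514 and 352 CPM of Wfdc17 and 287 and 408 CPM of Mgl2. Wfdc17 reached 834 and 1014 CPM over all kept cells and was a leading gene of a neutrophil-like cluster.

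Neutrophil-like clusters also held the genes, with 30.8% of all their heterozygous and 40.6% of all their wild-type UMIs, against 29.8% and 19.3% in the Gpnmb-Spp1-Apoe cluster. In the neutrophil-like cluster led by Acod1 the set summed to 1201 and 811 CPM, and C1qa, a macrophage complement gene, stood at 3017 CPM over both libraries. Of its 188 wild-type cells, 64 held both sex marks, and these 64 cells held 75.4% of the cluster's wild-type Mrc1 UMIs, 92.6% of its Lyve1 UMIs and 92.3% of its Cd163 UMIs. How far these UMIs came from more than 1 cell under a barcode was not tested.

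**Figure D1:**
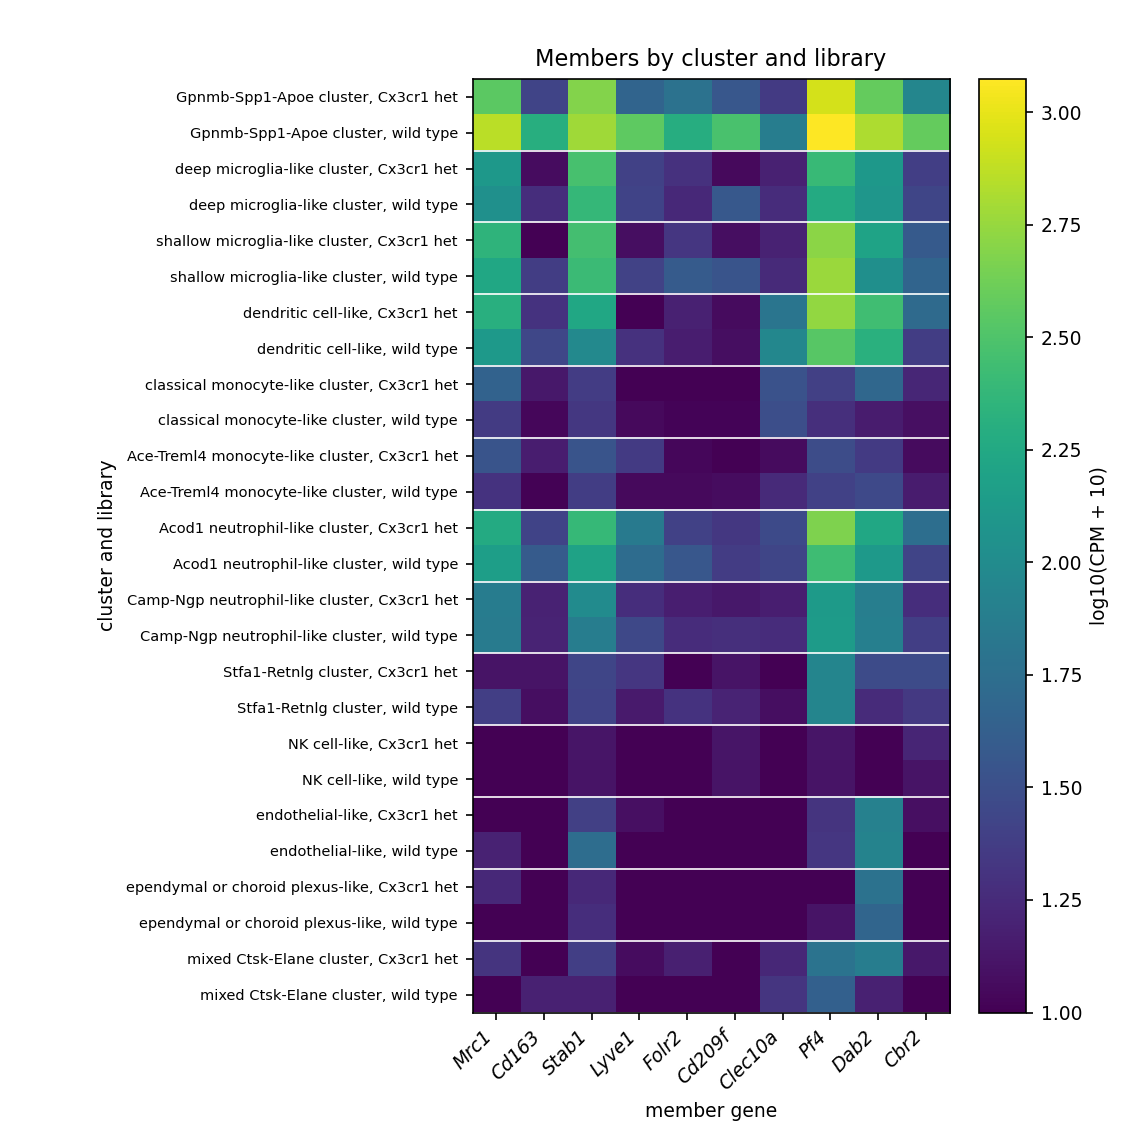
Level of each of the 10 genes (columns) in each cluster of at least 60 cells and each library (rows), as log10 of CPM + 10 of the summed UMIs. The Gpnmb-Spp1-Apoe rows are the brightest for most genes, Clec10a is brightest in the dendritic cell-like rows, and the NK cell-like rows are dark throughout.

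The genes fell into a broadly and a narrowly carried group, a split made after their values were seen. After each cell was thinned to 2000 UMIs (262 heterozygous and 306 wild-type cells were shallower and left out), a Stab1 UMI was found in 266 of 1227 heterozygous cells, or 21.7% (19.4 to 24.1), and in 220 of 1643 wild-type cells, or 13.4% (11.8 to 15.1). Thinned shares were 21.6% and 13.9% for Pf4, 18.0% and 10.3% for Dab2, and 14.7% and 8.28% for Mrc1. These 4 genes were the broadly carried ones. Of the remaining 6, the shares were 3.18% and 2.37% for Cbr2 and 2.44% and 2.62% for Clec10a. They were 1.30% and 1.58% for Folr2, 1.22% and 1.70% for Lyve1, 1.22% and 1.52% for Cd163, and 0.489% and 1.10% for Cd209f. Among these 6 genes the intervals of the 2 libraries overlapped. Without thinning the shares ran from 1.21% (Cd209f) to 38.1% (Stab1) in the heterozygous and from 2.31% to 28.2% in the wild-type library.

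In thinned NK cell-like cells, which should lack these genes, Stab1 and Pf4 were each found in 1 of 25 heterozygous cells, and Pf4 in 1 of 51 wild-type cells. The other 8 genes were found in 0 of 25 and 0 of 51 cells, which allows shares of up to 12% and 5.88%. NK cell-like cells had median depths of 7280 and 4811 UMIs before thinning, against 7461 and 6178 in the Gpnmb-Spp1-Apoe cluster. There, thinned shares were 56.3% (48.4 to 63.9) and 63.8% (50.1 to 76.0) for Stab1 and 48.5% and 55.2% for Pf4, well above those of NK cell-like cells. Cd209f was found there in 2 of 167 and 4 of 58 thinned cells, Cd163 in 4 and 7, and Lyve1 in 2 and 5. The heterozygous shares of these 3 genes, 1.20%, 2.40% and 1.20%, lie under the limit of 5.88% and cannot be told apart from background by share at this depth. The wild-type shares, 6.90%, 12.1% and 8.62%, lie above it, but their intervals begin below it at 1.91%, 4.99% and 2.86%.

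Mrc1 was highest in the Gpnmb-Spp1-Apoe cluster, where heterozygous cells had 348 CPM (320 to 377) and wild-type cells 712 (641 to 788). The shallow microglia-like cluster had 213 and 160 CPM (112 and 104 UMIs), dendritic cell-like cells 192 and 119 CPM, the Acod1 neutrophil-like cluster 177 and 136 CPM and the deep microglia-like cluster 118 and 99.5 CPM. In wild-type cells the Acod1 cluster (125 to 148 CPM) had an interval overlapping those of the shallow microglia-like (131 to 194) and dendritic cell-like cells (107 to 134), so these neighbours were not set apart. Monocyte-like clusters stood at 24.3 and 10.3 CPM (Ace-Treml4) and 35.2 and 13.02 CPM (classical). Stab1 was highest in the same cluster, with 475 and 593 CPM in the Gpnmb-Spp1-Apoe cluster, 288 and 231 CPM in the deep and 276 and 250 CPM in the shallow microglia-like cluster, where its intervals overlapped those of the deep one. The Acod1 neutrophil-like cluster had 235 and 148 CPM of Stab1, and dendritic cell-like cells 161 and 84.3 CPM. Microglia-like cells held 26.2% of all Stab1 UMIs, more than of any other gene of the set.

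Pf4 and Dab2 spread over the same clusters. Pf4 reached 864 and 1176 CPM in the Gpnmb-Spp1-Apoe cluster, 511 and 565 CPM in the shallow microglia-like cluster, 539 and 334 CPM in dendritic cell-like cells and 459 and 259 CPM in the Acod1 neutrophil-like cluster. Of the 6 platelet markers, 5 had no UMI in the Gpnmb-Spp1-Apoe cluster of either library (Ppbp, Itga2b, Gp1bb, Tubb1 and Gp6), and the list summed to 6.49 and 3.84 CPM there. Dab2 reached 375 and 647 CPM in that cluster, 266 and 198 CPM in dendritic cell-like cells and 161 and 121 CPM in the Acod1 neutrophil-like cluster. It was also the main gene of the set in endothelial-like cells, with 34 and 13 UMIs (71.8 and 74.1 CPM), and in choroid plexus-like cells, with 7 and 13 UMIs. Of the 79 and 35 endothelial-like cells, 21 and 18 have barcodes listed in both libraries. Of those 39 and 36 choroid plexus-like cells, 36 and 36 have barcodes listed in both libraries, and without them 3 heterozygous cells with 1 Dab2 UMI remained. In endothelial-like cells Cd163, Folr2, Cd209f and Clec10a had no UMI.

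Cd163, Lyve1, Folr2, Cd209f and Cbr2 were narrowly carried. Over both libraries the Gpnmb-Spp1-Apoe cluster held 46.2% of Cd209f UMIs, 38.9% of Folr2, 38.5% of Cbr2, 31.1% of Lyve1 and 28.5% of Cd163 UMIs, although it had 241 kept cells, or 11.6% and 3.49% of the libraries. Neutrophil-like cells held 52.8% of Lyve1, 45.7% of Cd163 and 41.2% of Folr2 UMIs. In the deep microglia-like cluster these 5 genes ranged from 1.20 CPM (Cd209f) to 15.1 CPM (Lyve1) in heterozygous cells and from 7.24 CPM (Folr2) to 27.0 CPM (Cd209f) in wild-type cells. Clec10a was the exception of the set. It was highest in dendritic cell-like cells, at 53.8 CPM (44.2 to 64.9) and 82.0 CPM (71.3 to 93.8), against 12.4 and 65.2 CPM in the Gpnmb-Spp1-Apoe cluster, where the wild-type interval (45.2 to 91.2) overlapped. Dendritic cell-like cells held 46.9% of its UMIs, and classical monocyte-like cells had 23.5 and 21.5 CPM.

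Across 26 sums of cluster and library with at least 20 cells, the highest correlations lay within the broadly or the narrowly carried group. Some pairs across the groups exceeded pairs within them. These correlations of log2(CPM + 10) share clusters and libraries and come from the values that made the split. They are a description and do not back the split. Mrc1 and Stab1 had a Pearson r of 0.95, Mrc1 and Pf4 0.92, and Stab1 and Pf4 0.92. Folr2 and Cd209f had 0.91, Folr2 and Cbr2 0.91, and Cd163 and Lyve1 0.90, while Clec10a and Cd209f had the lowest value, 0.43. Across the groups, Pf4 and Cbr2 had 0.85 and Mrc1 and Cbr2 0.84, above Pf4 and Dab2 at 0.80. Clec10a was also more like Mrc1 (0.67) than Lyve1 (0.46). Outside the set, the summed genes were most like Ms4a7 (0.96), Cxcl16 (0.94), Ccl7, Ntpcr and C1qa (each 0.93). Ms4a7, a membrane protein of macrophages, was among the 5 nearest genes for Mrc1, Stab1, Pf4, Dab2 and Cbr2. Cd163, Lyve1 and Cd209f shared 4 of their 5 nearest genes, C4b, Fcna, Siglec1 and Cd209g. Clec10a was nearest to Rab7b (0.90), Qpct (0.89) and Lyz1 (0.87).

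Several of the genes were found in the same cells. After thinning, 3 or more of the 10 genes were found in 146 of 1227 heterozygous cells, 11.9% (10.1 to 13.8), and in 101 of 1643 wild-type cells, 6.15% (5.03 to 7.42). Without thinning the shares were 27.4% and 20.01%. In NK cell-like cells 0 of 25 and 0 of 51 cells reached 3 genes. The highest shares were in the Gpnmb-Spp1-Apoe cluster, 37.1% (29.8 to 44.9) and 46.6% (33.3 to 60.1), whose intervals overlap. Dendritic cell-like cells had 24.4% (17.3 to 32.7) and 10.5% (6.55 to 15.8), the deep microglia-like cluster 8.49% and 5.88%, and the shallow one 17.6% and 15.1%. The pooled difference also reflects how many cells of each cluster a library holds, which cell sorting and recovery can set.

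**Figure D2:**
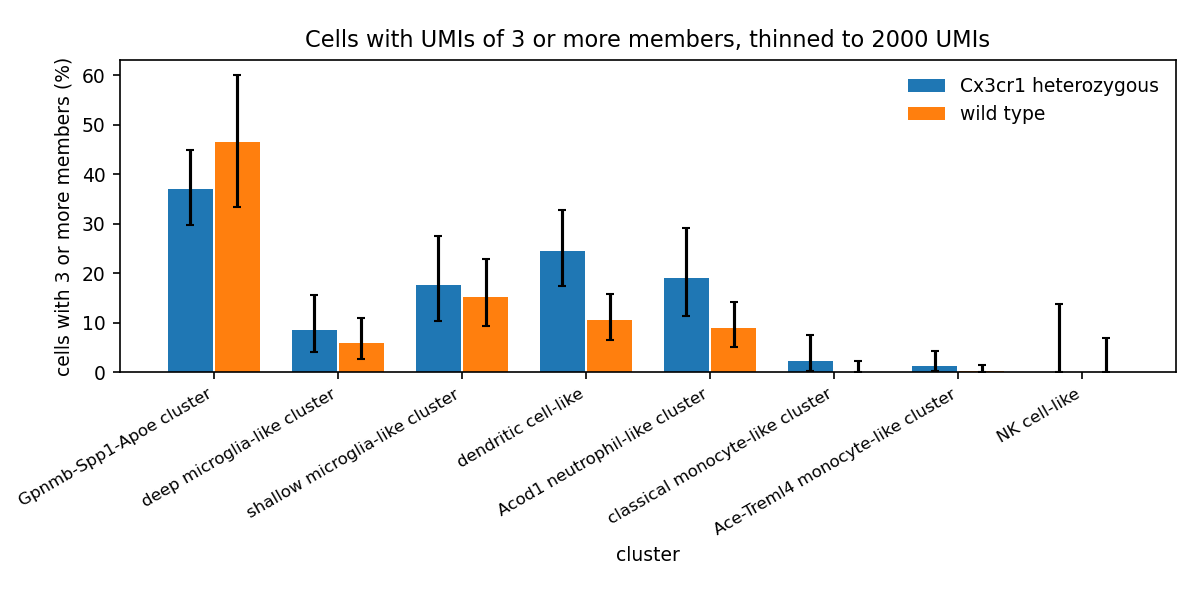
Percent of cells with UMIs of 3 or more of the 10 genes after thinning to 2000 UMIs, by cluster and library, with 95% Clopper-Pearson intervals. The Gpnmb-Spp1-Apoe bars are the tallest at 37.1% and 46.6%, and the NK cell-like bars are at 0.

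In the 489 heterozygous and 520 wild-type thinned cells of the Gpnmb-Spp1-Apoe, microglia-like and dendritic cell-like clusters, Pf4 was found in 67.4% of 135 heterozygous cells with Mrc1 and in 28.0% of 354 without it. In wild-type cells the shares were 52.6% of 95 and 23.5% of 425. Lyve1 was rarer: of 11 wild-type cells with it, 10 also held Pf4, 9 Mrc1, 8 Stab1, 6 Folr2, 5 Cbr2 and 4 Cd163. Among the 509 wild-type cells without Lyve1, Mrc1 was found in 16.9% and Cd163 in 2.4%. With and without Clec10a (35 and 485 wild-type cells), Stab1 was found in 28.6% and 28.9%, Mrc1 in 28.6% and 17.5%, Dab2 in 37.1% and 21.6% and Cd163 in 8.57% and 2.68% of cells. Cd163 was found in 4 of 20 heterozygous cells with Clec10a and in 6 of 469 without it. These shares mix clusters, and all come from 1 library per genotype.

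Lyve1, Cd209f and Cd163 were found together, without thinning, in 7 of 1489 heterozygous and 16 of 1949 wild-type cells, a set singled out after the values were seen. All 23 cells held at least 8 of the 10 genes, and 5 and 13 of them held 9 or 10. They contained 31.8% of all heterozygous and 57.6% of all wild-type Lyve1 UMIs, 84.8% and 62.6% of Cd209f UMIs, and 22.5% and 44.1% of Cd163 UMIs. All 23 also held C1q transcripts, from 3783 to 25782 CPM of the cell in heterozygous and from 3933 to 28622 CPM in wild-type cells.

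Their other transcripts differed by cluster. In the Gpnmb-Spp1-Apoe cluster lay 2 heterozygous and 4 wild-type ones, all Xist-marked, and their neutrophil genes S100a8 and S100a9 summed to between 317 and 962 CPM. In neutrophil-like clusters lay 5 heterozygous and 9 wild-type ones, with S100a8 and S100a9 from 14811 to 241176 CPM. Of those 9 wild-type cells, 8 held both sex marks. The remaining 3 wild-type cells were microglia-like, with 1422, 10767 and 14241 CPM of S100a8 and S100a9. The median depth of the 23 cells was 19337 UMIs in the heterozygous and 29410.5 UMIs in the wild-type library, far above the library medians. Whether the neutrophil-like ones were doublets was not tested.

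**Figure D3:**
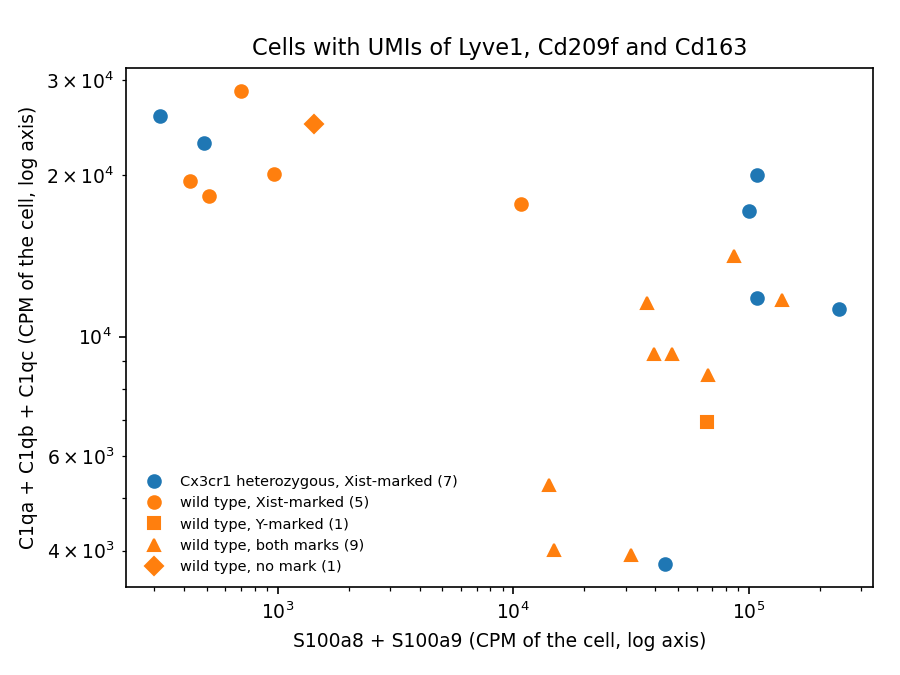
Each point is a cell with UMIs of Lyve1, Cd209f and Cd163, by its S100a8 + S100a9 level (x axis, log scale, CPM of the cell) and its C1qa + C1qb + C1qc level (y axis, log scale, CPM of the cell), with colour for the library and shape for the sex mark. Those in the Gpnmb-Spp1-Apoe cluster stand at the left, under 1000 CPM of the neutrophil genes, and most of the wild-type cells with both marks lie to the right.

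Single cells of this kind in the Gpnmb-Spp1-Apoe cluster held many UMIs of the narrowly carried genes. The deepest wild-type one, at 27425 UMIs, held 61 Lyve1, 37 Cd209f, 23 Cd163, 37 Folr2 and 68 Cbr2 UMIs. Another, at 12857 UMIs, held 67 Lyve1, 12 Cd209f, 27 Cd163, 17 Folr2 and 17 Cbr2 UMIs. Of the 2 heterozygous ones, that at 28431 UMIs, whose barcode is also listed in the wild-type library, held 25 Lyve1, 20 Cd209f, 1 Cd163, 50 Folr2 and 67 Cbr2 UMIs. All 32 heterozygous and 59 wild-type NK cell-like cells together held 5 and 4 UMIs of the 10 genes.

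Over all kept cells, which mix the clusters in different shares, Pf4 and Stab1 were at least 1.5-fold higher in the heterozygous library, as were 8.80% of the 11994 genes with at least 50 UMIs. Pf4 stood at 281 against 185 CPM, a log2 ratio of 0.60 (0.54 to 0.67), and Stab1 at 157 against 101 CPM, a log2 ratio of 0.64 (0.56 to 0.73). Cd163, Lyve1 and Cd209f were at least 1.5-fold lower, beside 1.73% of all genes. Cd163 stood at 7.05 against 15.1 CPM (log2 ratio -1.10), Lyve1 at 15.7 against 24.5 CPM (-0.65) and Cd209f at 5.40 against 15.6 CPM (-1.53). The median log2 ratio of the 10 genes was -0.12 and that of all genes 0.04. With TMM or median-of-ratios scaling, neither Pf4 nor Stab1 passed 1.5-fold, while 7.60% and 7.24% of all genes were that much higher. Without the 23 cells that hold Lyve1, Cd209f and Cd163, the log2 ratio was 0.012 for Lyve1 and -2.86 for Cd209f. Without cells of both sex marks, 4 genes were higher (Mrc1, Pf4, Stab1 and Dab2), beside 10.9% of all genes. Only Cd209f and Clec10a were then lower, beside 2.27%.

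Within the Gpnmb-Spp1-Apoe cluster (173 heterozygous and 68 wild-type cells), 8 of the 10 genes were at least 1.5-fold lower in the heterozygous library and 0 higher, where 7.56% and 8.42% of 5025 genes were lower and higher. Of the 8, Cd163 (28 against 98 UMIs) and Cd209f (45 against 152) reached 50 UMIs only through the wild-type cells. The count beside its share is therefore a description. The median log2 ratio was -2.06 for the 10 genes and -0.01 for all genes. That count depends on which cells the clustering puts together. With the 10 genes and the sex-linked genes kept for clustering, the cluster held 157 heterozygous and 48 wild-type cells. Only 4 of the genes then reached 50 UMIs, and 0 passed, beside 10.4% of all genes higher and 5.80% lower. With genes scaled before clustering, 4 of the 10 reached 50 UMIs and Dab2 alone was lower, beside 7.36% of all genes. In each of these clusterings 21 of the 68 wild-type cells left, with 72.4% and 74.1% of the wild-type UMIs of the set.

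Among the receptors, Mrc1 had 589 UMIs in 95 of the 173 heterozygous cells and 371 UMIs in 42 of the 68 wild-type cells, a log2 ratio of -1.03 (-1.22 to -0.84). Cd163 had 28 UMIs in 8 and 98 UMIs in 10 cells, or 16.5 and 188 CPM, a log2 ratio of -3.51 (-4.17 to -2.89). Lyve1 had 62 UMIs in 6 and 184 UMIs in 10 cells, or 36.6 and 353 CPM, a log2 ratio of -3.27 (-3.71 to -2.85). Each of these receptors was lower in the heterozygous library in CPM, while the share of cells that carried it differed less in fold. Without the 2 heterozygous and 4 wild-type cells that hold Lyve1, Cd209f and Cd163, which have 43 of the 62 and 169 of the 184 Lyve1 UMIs, the log2 ratio of Lyve1 was -1.51 (-2.56 to -0.43) and that of Cd163 -2.23. Folr2 had 86 UMIs in 26 and 96 UMIs in 13 cells (log2 ratio -1.86), and a single heterozygous cell, whose barcode is listed in both libraries, held 50 of the 86. Without shared barcodes the log2 ratio of Folr2 was -3.04 (-3.64 to -2.47) and that of Lyve1 -3.90. Stab1, with 805 UMIs in 153 and 309 UMIs in 56 cells, had a log2 ratio of -0.32 (-0.51 to -0.13), under 1.5-fold.

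The lectins and the other genes had the same direction there. Cd209f had 45 UMIs in 3 and 152 UMIs in 5 cells, a log2 ratio of -3.46 (-3.97 to -2.97), and Clec10a had 21 UMIs in 7 and 34 in 9 cells (-2.40). Cbr2 had 134 UMIs in 21 and 196 UMIs in 19 cells, a log2 ratio of -2.25, and the same heterozygous cell of shared barcode held 67 of the 134. Without shared barcodes the log2 ratio of Cbr2 was -3.15 and that of Cd209f -4.19. Without the cells that hold Lyve1, Cd209f and Cd163, it was -7.83 for Cd209f (1 against 63 UMIs) and -1.66 for Clec10a. Pf4 (864 against 1176 CPM) and Dab2 (375 against 647 CPM) had log2 ratios of -0.44 and -0.79. In wild-type cells 2 cells held at least 50% of the UMIs of Cd163, Lyve1, Folr2, Cd209f and Cbr2 alike, so the counting intervals understate how much these ratios could vary. Without the cells that hold Lyve1, Cd209f and Cd163, 8 genes reached 50 UMIs and 6 of them were lower, beside 6.36% of all genes. With clustering at resolution 0.25 or no cell filter, the cluster merged with microglia-like cells. Then 5 genes were lower, beside 4.70% and 4.48% of all genes, and the log2 ratios of Mrc1, Stab1, Pf4 and Dab2 turned above 0.

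**Figure D4:**
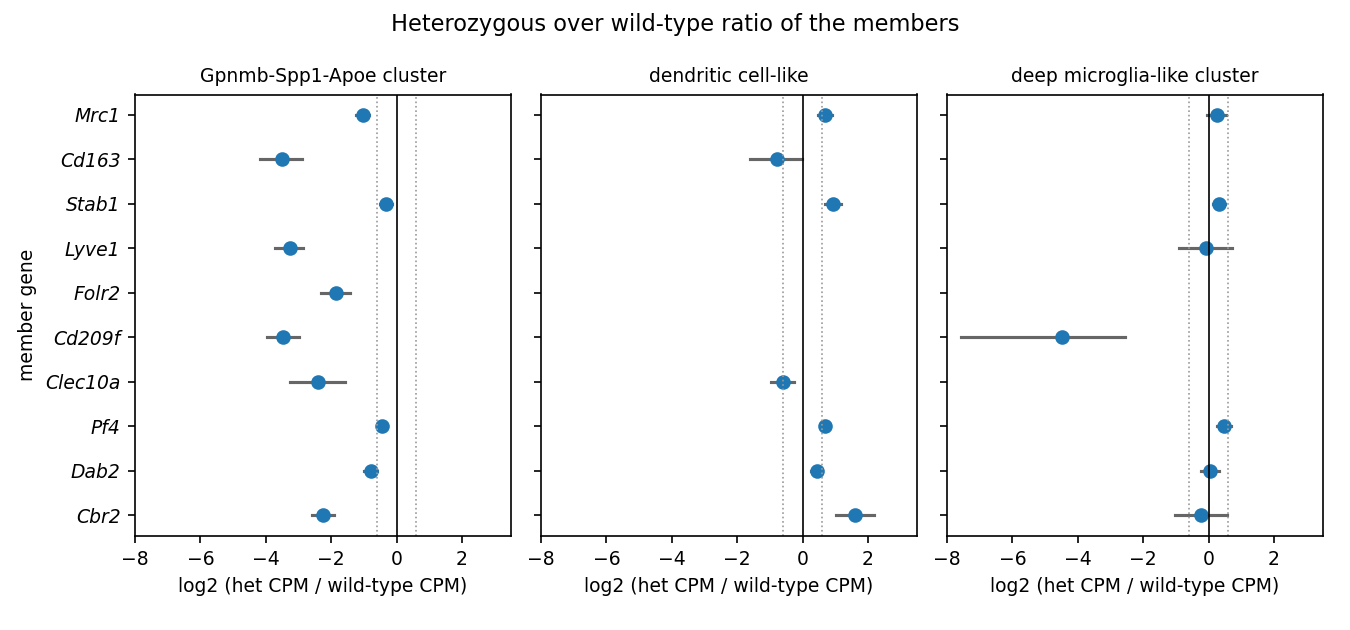
Log2 ratio of heterozygous over wild-type CPM for the genes with at least 50 UMIs (points) with 95% counting intervals (bars), in the Gpnmb-Spp1-Apoe cluster, dendritic cell-like cells and the deep microglia-like cluster. Dotted lines mark 1.5-fold. All 10 points of the first panel lie below 0, and 5 of the 7 of the second lie above it.

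The wild-type cells of this cluster differed by sex mark, a comparison emphasised after the values were seen. All 162 marked heterozygous cells were Xist-marked, while 16 wild-type cells were Xist-marked, 23 Y-marked, 2 held both marks and 27 none. In the wild-type library all 9 genes with at least 50 UMIs over the 2 marks were at least 1.5-fold higher in Xist-marked cells, beside 16.4% of 1106 genes, and 0 lower, beside 14.3%. Both kinds of cell came from the same library, with median depths of 8326 and 8600 UMIs. Of the 9, Cd163, Lyve1, Folr2, Cd209f and Cbr2 reached 50 UMIs only through the Xist-marked cells, so the count and its share describe the values and support nothing. None of these 16 Xist-marked and 23 Y-marked cells had a barcode listed in both libraries, so removing such barcodes could not change these values.

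Mrc1 had a lowest, median and highest count per cell of 0, 12 and 38 UMIs in the Xist-marked and 0, 2 and 24 in the Y-marked wild-type cells. The sums of 239 and 84 UMIs gave 1434 and 366 CPM, a log2 ratio of 1.97 (1.61 to 2.35). Cd163 had 79 UMIs in 7 Xist-marked cells and 7 UMIs in 2 Y-marked cells (log2 ratio 3.96). The ranges of single cells overlapped for each gene, since some cells of both kinds had 0 UMIs. Lyve1 had 176 UMIs in 7 against 5 in 2 cells (5.60), and Folr2 89 UMIs in 10 against 3 in 1 cell. Cd209f had 152 UMIs in 5 Xist-marked cells and 0 in the 23 Y-marked cells, which is at least 69.7-fold higher against a floor of 3 UMIs over the Y-marked cells. Cbr2 had 172 UMIs in 10 against 14 in 2 cells, a log2 ratio of 4.08.

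The broadly carried genes differed less by mark. Pf4 had 345 against 194 UMIs (log2 ratio 1.29), Stab1 136 against 103 (0.86) and Dab2 155 against 122 (0.81), with intervals above 0. Clec10a had 31 UMIs in 7 cells and 3 in 2 cells and did not reach 50 UMIs. Without the 4 Xist-marked cells that hold Lyve1, Cd209f and Cd163, Lyve1 was 7 against 5 UMIs, a log2 ratio of 1.61 (-0.26 to 3.61), and Cd163 11 against 7 (1.78). Cbr2 was then 72 against 14, Folr2 21 against 3, and Cd209f 63 against 0 UMIs. In the reclusterings above, 10 of the 16 Xist-marked wild-type cells left the cluster, with 1519 of the 1574 UMIs of the set in that group.

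When the 162 Xist-marked heterozygous cells were compared with the 23 Y-marked wild-type cells, the interval of the log2 ratio included 0 for 7 genes. The ratios were -0.05 for Mrc1 (354 against 366 CPM), 0.09 for Stab1, 0.06 for Pf4 and 0.39 for Cbr2. Those of Cd163 (-0.84), Lyve1 (0.79) and Clec10a (-0.03) rest on 7, 5 and 3 wild-type UMIs. Folr2 was higher in the heterozygous cells (86 against 3 UMIs, with a log2 interval from 0.41 to 4.31), Dab2 was lower (-0.48, -0.76 to -0.18), and Cd209f had 44 against 0 UMIs. Compared with the 16 Xist-marked wild-type cells, all 10 genes were lower in the heterozygous ones, from -0.77 for Stab1 to -5.09 for Cd209f. Those 16 cells held from 80.6% (Cd163) to 100% (Cd209f) of the cluster's wild-type UMIs of Cd163, Lyve1, Folr2, Cd209f and Cbr2. The share of all genes is not given for either comparison, so these counts are a description. Donor genotype, sex mark and the host or donor origin of these cells cannot be told apart.

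**Figure D5:**
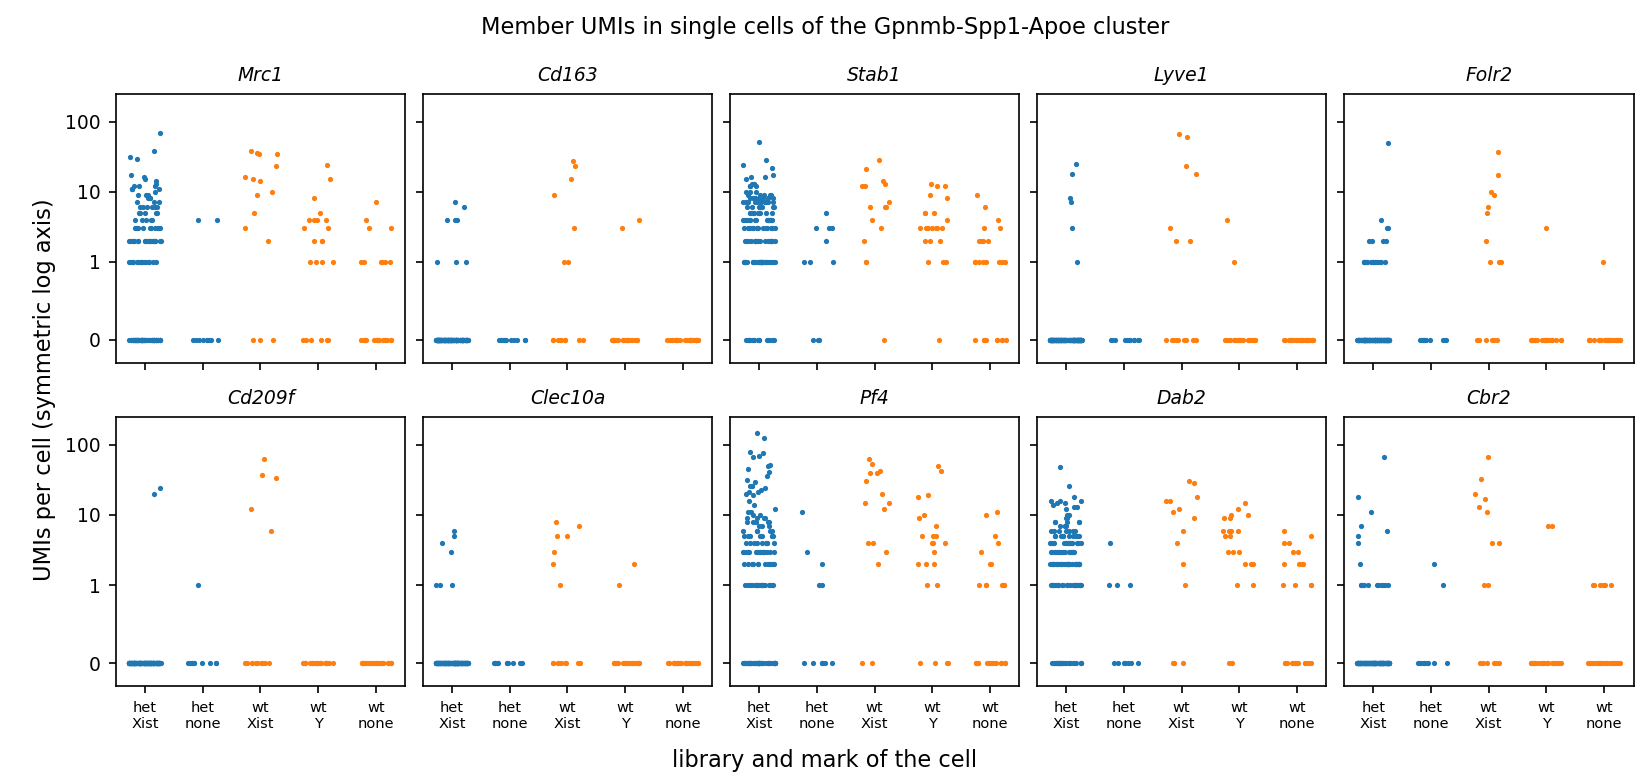
UMIs of each gene in single cells of the Gpnmb-Spp1-Apoe cluster (y axis, symmetric log scale), by library and sex mark (x axis: Xist, Y or none); the 2 wild-type cells with both marks are not drawn. Wild-type Xist-marked cells reach 67 Lyve1 and 63 Cd209f UMIs, while no Y-marked cell has more than 4 Lyve1 or any Cd209f UMI.

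In dendritic cell-like cells (183 heterozygous and 222 wild type), led by H2-Eb1, H2-Aa, Cd74 and Mgl2, the broadly carried genes had the other direction. Of 7 genes with at least 50 UMIs, 4 were at least 1.5-fold higher in the heterozygous library, beside 4.43% of 7081 genes, and 2 lower, beside 2.60%. Mrc1 had 393 UMIs in 71 and 309 UMIs in 83 cells (192 against 119 CPM), a log2 ratio of 0.69 (0.47 to 0.91). Stab1 had 161 against 84.3 CPM (0.93, 0.68 to 1.19) and Pf4 539 against 334 CPM (0.69, 0.56 to 0.82). Cbr2 had 86 UMIs in 21 and 36 UMIs in 11 cells, a log2 ratio of 1.60 (1.02 to 2.20), and 1 heterozygous cell held 30 of the 86. Cbr2 reached the minimum only through the heterozygous cells, and with genes scaled before clustering its log2 ratio was 0.22. Dab2 was under 1.5-fold at 0.43.

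Clec10a and Cd163 were the lower ones. Clec10a, at its highest level of any cluster here, had 110 UMIs in 41 heterozygous and 212 UMIs in 71 wild-type cells, a log2 ratio of -0.61 (-0.95 to -0.27). Cd163 had 21 and 46 UMIs, a log2 ratio of -0.79 (-1.61 to -0.02). Lyve1 had 0 UMIs in 183 heterozygous and 25 UMIs in 8 wild-type cells, at least 6.59-fold lower against a floor of 3 UMIs over the heterozygous cells, though it did not reach 50 UMIs. Neutrophil markers summed to 1653 CPM in heterozygous and 709 in wild-type dendritic cell-like cells, with 10 of 10 markers found in both, and their part in the result was not tested. With a stricter cell filter only Cbr2 and Stab1 passed on the higher side, beside 7.69% of all genes. With genes scaled before clustering only Pf4 and Stab1 did, beside 6.71%. By mark, the 21 Xist-marked wild-type cells had 321 and the 112 Y-marked ones 101 CPM of Mrc1 (log2 ratio 1.67, 1.20 to 2.12), while Clec10a stood at 35.0 against 72.8 CPM with an interval that includes 0.

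The deep microglia-like cluster (122 heterozygous and 174 wild-type cells), led by P2ry12, had smaller ratios for most genes. Of the 7 genes with at least 50 UMIs, 0 were at least 1.5-fold higher (3.57% of 7177 genes were) and 1 lower (2.70%). That gene was Cd209f, with 2 UMIs in 2 heterozygous and 56 UMIs in 6 wild-type cells (1.20 against 27.0 CPM), a log2 ratio of -4.49 (-7.57 to -2.57), and 1 wild-type cell held 43 of the 56. It reached 50 UMIs only through the wild-type cells, so its count beside that share is a description. Without the highest cell of each library the ratio was -3.37 (-8.78 to -0.63), and without the cells that hold Lyve1, Cd209f and Cd163 it was -2.30 (-5.50 to -0.13). The rest lay between -0.23 for Cbr2 and 0.47 for Pf4, and the intervals of Mrc1, Lyve1, Dab2 and Cbr2 included 0. The Lyve1 ratio of -0.08 was 1.12 (0.12 to 2.18) without the cells that hold Lyve1, Cd209f and Cd163, and -1.13 with the strict cell filter. Cd163, Folr2 and Clec10a had 21, 31 and 26 UMIs over both libraries and were not measured at that minimum.

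Related genes were described from fixed lists in the Gpnmb-Spp1-Apoe cluster, where 8.42% of 5025 genes were at least 1.5-fold higher and 7.56% lower. Of 12 measured other border macrophage genes, 0 were at least 1.5-fold higher and 6 lower in the heterozygous library, with a median log2 ratio of -0.51. Cd209g, the near copy of Cd209f, had 5 against 52 UMIs (-5.08), F13a1, a coagulation factor gene of macrophages, 192 against 276 UMIs (-2.23), and Ccl24, an eosinophil chemokine, 28 against 29 UMIs (-1.75). Ms4a7, by contrast, stood at 1220 and 1163 CPM (0.07, -0.06 to 0.20). Of 6 other scavenger receptors only Cd36, a fatty acid receptor, was lower (-1.43), and the median was 0.08. Of 5 other C-type lectins Clec4d was higher (0.92) and Clec4a1 and Clec4a2 lower, and of 9 clathrin partners of Dab2 only Ap2a2 was lower (-1.07). No platelet gene and no endothelial gene of the lists reached 50 UMIs in the cluster. Cd209g and Clec4d (74 against 12 UMIs) reached it only through the library where each was higher, so these counts are a description.

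By sex mark in the wild-type library, 8 of 9 measured other border macrophage genes were at least 1.5-fold higher in the Xist-marked cells of the cluster and 1, Clec12a, lower. Of all 1106 genes measured there, 16.4% were higher and 14.3% lower. Which of the border macrophage genes reached 50 UMIs depends in part on the Xist-marked cells, so this too is a description. Cd209g had 52 against 0 UMIs. Among all genes outside the 10, those with the highest ratio were Gdf15, a stress cytokine (102 against 2 UMIs), Cd209g, Fcna, a ficolin (91 against 2), Ccl6, a chemokine (363 against 17), and C4b, a complement component (49 against 3). The lowest were Il1a (0 against 60 UMIs) and Spp1, osteopontin (75 against 877). P2ry12, the microglial purinergic receptor, stood at 108 against 205 CPM and Apoe, a lipid carrier, at 31538 against 51350 CPM. Gpnmb, a leading gene of the cluster, stood at 120 against 56.7 CPM, and at 686 CPM in Xist-marked heterozygous cells. Spp1 stood at 450 against 3822 CPM, and at 4855 CPM in those heterozygous cells.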

How the data were processed

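The authors deposited 1 matrix of UMI counts per library, with gene and barcode lists, made with Cell Ranger 4.0 on mm10 per the submitters' processing notes (5.0.0 per the file headers). The deposited counts are raw whole numbers, and no barcode had fewer than 500 UMIs. Filters beyond that, and the number of animals, are not given in the sources used here.

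The cell filter was a minimum of 500 genes and a mitochondrial share below 10%. Both libraries were clustered together in scanpy 1.11.5 (counts scaled to 10000 per cell and logged, 2000 variable genes, 30 components, 15 neighbours, Leiden resolution 0.5, igraph 0.11.9), without the 10 genes and the sex-linked genes. Clusters were named from marker lists, or by leading genes where no name applied. UMIs were summed by cluster and library and divided by all UMIs of those cells. Each genotype has 1 library, so nothing was tested across samples. Exact Poisson, Clopper-Pearson and conditional binomial 95% intervals cover counting error only. A gene was compared where both libraries together held at least 50 UMIs, and 1.5-fold was the size counted. A group at 0 was set to a floor of 3 counts over the group. Log2 ratios are of CPM with no pseudocount, and correlations use log2(CPM + 10). TMM factors came from edgeR 4.0.16 in R 4.3.3. Cells carrying Xist UMIs alone or Y-linked UMIs alone were called Xist-marked or Y-marked.

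All 10 genes are named, and examples from the related lists (other border macrophage genes, scavenger receptors, C-type lectins, clathrin partners, endothelial and platelet genes) are those with the highest absolute ratio. Genes like a member are the 5 with the highest correlation among genes with at least 100 UMIs, over sums of at least 20 cells. The 10 genes and the lists were chosen with earlier results of these data known. Clustering on unscaled genes, the sex marks within 1 cluster, the cells with Lyve1, Cd209f and Cd163, and the motifs were chosen after values were seen. Scripts were tested on simulated data. Python 3.11.15, numpy 2.4.6, scipy 1.17.1, pandas 2.3.3 and matplotlib 3.10.9 were used.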

Additional observations from a re-analysis of the deposited data

Results flagged for a closer look

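For 5 genes the log2 ratio of the heterozygous over the wild-type library was above 0 in dendritic cell-like cells and below 0 in the Gpnmb-Spp1-Apoe cluster. The ratio in dendritic cell-like cells minus that in the cluster was 1.72 for Mrc1, 1.25 for Stab1, 1.13 for Pf4, 1.21 for Dab2 and 3.85 for Cbr2. With 1 library per genotype, the difference between the clusters was not tested. The cells that the cluster holds depend on the clustering, as given in the report.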

How the results depend on the processing

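No paired analysis was possible because each genotype has 1 library, and leaving out a replicate is not possible for the same reason. Without shared barcodes, 5 genes were lower over all kept cells (3 as reported), beside 1.54% of all genes. The number higher there, 2 as reported, was 0 at 2-fold, 0 with TMM and 0 with median-of-ratios. It was 4 without neutrophil-like clusters (and a cluster led by Stfa1 and Retnlg), and 4 without cells of both marks. Beside them, 4.31%, 7.60%, 7.24%, 11.1% and 10.9% of all genes were higher, in that order. In the Gpnmb-Spp1-Apoe cluster 8 genes were lower as reported. That number was 4 at a minimum of 200 UMIs, and 5 without the cell filter and at resolution 0.25. It was 0 with the members and sex-linked genes kept in the clustering, and 1 with scaled genes. Beside them, 4.74%, 4.48%, 4.70%, 5.80% and 7.36% of all genes were lower, in that order. Pf4 was the 1 gene higher without the cell filter, beside 3.33% of all genes. Ratios that turned above 0 in that cluster were as follows. Without the cell filter Mrc1 had 0.10, Stab1 0.32, Pf4 0.68 and Dab2 0.18. At resolution 0.25 Mrc1 had 0.0035, Stab1 0.32, Pf4 0.50 and Dab2 0.12. With the members kept, Stab1 had 0.046, Folr2 0.57 and Pf4 0.15, and with scaled genes Pf4 had 0.15. Lyve1 over all kept cells had 0.012 without the cells holding Lyve1, Cd209f and Cd163.

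In dendritic cell-like cells the 4 genes higher were 1 at 2-fold, 2 with the strict filter and 2 with scaled genes. Beside them, 0.621%, 7.69% and 6.71% of all genes were higher. The 2 genes lower were 1 at 200 UMIs, 0 at 2-fold and 0 without the cell filter. They were 1 at resolution 0.25, 1 with the members kept and 4 with scaled genes. Beside them, 0.881%, 0.410%, 2.52%, 2.70%, 3.11% and 3.85% of all genes were lower, in that order. The shares of cells with 3 or more of the genes were 5.01% and 2.72% when thinned to 1000 UMIs and 27.4% and 20.01% without thinning, and 22.8% and 13.8% held 2 or more and 5.05% and 2.86% held 4 or more. Of the library ratios under alternatives, 326 stayed within their reported interval and 96 left it. Another 13, whose reported interval excluded 0, changed sign. Sign changes of ratios whose interval included 0 were counted among the 326 and 96. Scaled genes and the settings that leave out cells were chosen after seeing the data, and the cause of these shifts was not tested. With no cell filter or at resolution 0.25 no separate deep microglia-like cluster formed, so no value is given for it. Cd163, Folr2 and Clec10a stayed under 50 UMIs in the deep microglia-like cluster, and Folr2, Lyve1 and Cd209f in dendritic cell-like cells.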

Other observations

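Among clusters with C1qa at 500 CPM or more, 241 thinned cells with 3 or more of the 10 genes were compared with 826 cells that held none, as a description. Ccl7 stood at 851 against 18.8 CPM, Ccl2 at 1021 against 146 CPM and Ccl8 at 94.5 against 1.51 CPM. Vcam1, an adhesion molecule, stood at 154 against 10.3 CPM, and Fcna, a ficolin, at 68.5 against 1.66 CPM. Camp and Ngp, which encode neutrophil granule proteins, stood at 1921 against 10637 CPM and at 2242 against 12452 CPM. Most of the 826 cells lay in the neutrophil-like clusters or in an unnamed cluster led by Stfa1 and Retnlg. A comparison without these clusters, added after seeing the data, kept 192 and 342 cells. There, Ccl7 stood at 1022 against 17.6 CPM and F13a1 at 307 against 43.6 CPM.

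Within the Gpnmb-Spp1-Apoe cluster, 89 carrying cells were set beside 33 with none, with median depths of 6892 and 6686 UMIs. Ccl2 stood at 1626 against 80.2 CPM and Ccl6 at 802 against 38.5 CPM. Spp1 had the other direction, at 393 against 15024 CPM, as had Cd9, a tetraspanin, at 365 against 1904 CPM. Lgals3 (galectin 3) stood at 114 against 734 CPM over both libraries. By library it was 102 against 836 CPM in heterozygous cells (62 and 28 cells). In wild-type cells it was 139 against 133 CPM (27 and 5 cells), so that reference rests on 5 cells.

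Over all kept cells, 7 of 8 endothelial genes were at least 1.5-fold higher in the heterozygous library, with a median log2 ratio of 1.73. Of all 11994 genes measured, 8.80% were higher and 1.73% lower. Endothelial-like cells numbered 79 against 35, of which 21 and 18 had barcodes listed in both libraries. Of 14 other border macrophage genes, Ms4a7 and Ccl8 were higher over all kept cells and Cd209g lower, with a median of 0.25.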
